A study of Homo sapiens with 3 samples.

Results

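Signalling by bone morphogenetic proteins, activin and TGF-beta was examined through 10 genes: the ligand genes BMP2, INHBA and TGFB1, the latent TGF-beta binding protein gene LTBP2, the ID genes ID1, ID2, ID3 and ID4, and the inhibitory SMAD genes SMAD6 and SMAD7. They are 10 of the 11963 genes that the array measures with at least 1 unshared probe set, and 19 of its 22283 probe sets are annotated to 1 of them alone. One more probe set, annotated to ID2 together with ID2B, cannot be assigned to either. The group was put together with the array values known, because BMP2, INHBA, ID3 and LTBP2 differed between arrays, so the group was chosen by these differences in scaled signal, which are given as a description with no test. The cells were CAL 27, an established line from a poorly differentiated squamous cell carcinoma of the tongue, stably transfected with nm23-H1, with nm23-H2 or with the empty vector. The nm23-H1 and nm23-H2 genes (NME1 and NME2) encode nucleoside diphosphate kinases, and the nm23-H1 protein was expressed as a fusion to the fluorescent protein EGFP. All 3 transfectants were grown in serum-containing medium and carry an EGFP plasmid backbone (pEGFPC1) per the labels and design text. The vector cells were 1 clone according to the design text, which speaks of clones for nm23-H1 and does not mention nm23-H2. Each transfectant was measured on 1 array, so transfected gene, separately grown transfectant and array cannot be told apart, no difference has a replicate check, and no p-value is given. Whether the nm23-H2 array was run together with the nm23-H1 and vector arrays is not given in the sources used here, so a difference in run cannot be told apart from nm23-H2 in any value of that array.

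Bone morphogenetic proteins, activins and TGF-beta are secreted dimers that bind paired serine/threonine kinase receptors on the cell surface. The receptors phosphorylate SMAD proteins, which enter the nucleus with SMAD4; BMP receptors act through SMAD1, SMAD5 and SMAD9, and activin and TGF-beta receptors through SMAD2 and SMAD3. The ID genes are direct targets of BMP signalling in many cell types, and ID proteins hold back basic helix-loop-helix factors by pairing with E proteins. SMAD6 and SMAD7 are induced by the pathway and inhibit it. In stratified epithelium TGF-beta is known to restrain keratinocyte growth, and activin A is linked to wound repair.

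The sequences just upstream of ID1, ID3 and LTBP2 are shown because ID1 and ID3 encode closely related proteins whose transcripts differed by unlike amounts on the nm23-H2 array, and because LTBP2 was higher with both nm23 genes. They are the 250 bases before the gene start, 5′ to 3′ on the gene's strand, from RefSeq on GRCh38.p14. Capitals mark matches on either strand to the BMP SMAD motif GGCGCC, the SMAD box CAGAC or GTCTG, the E-box CANNTG and the TATA motif TATAAA or TTTATA.
ID1 (chr20:31605039-31605288, plus strand): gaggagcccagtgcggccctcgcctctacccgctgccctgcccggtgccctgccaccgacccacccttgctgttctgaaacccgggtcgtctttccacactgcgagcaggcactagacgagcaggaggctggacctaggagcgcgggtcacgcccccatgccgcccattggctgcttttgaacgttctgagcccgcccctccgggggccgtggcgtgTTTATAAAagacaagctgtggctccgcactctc
ID3 (chr1:23559502-23559751, minus strand): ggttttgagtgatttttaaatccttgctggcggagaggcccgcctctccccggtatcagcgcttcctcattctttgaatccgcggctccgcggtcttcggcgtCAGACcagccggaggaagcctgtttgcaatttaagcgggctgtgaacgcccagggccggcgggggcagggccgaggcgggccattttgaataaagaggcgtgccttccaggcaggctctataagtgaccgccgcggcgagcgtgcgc
LTBP2 (chr14:74612238-74612487, minus strand): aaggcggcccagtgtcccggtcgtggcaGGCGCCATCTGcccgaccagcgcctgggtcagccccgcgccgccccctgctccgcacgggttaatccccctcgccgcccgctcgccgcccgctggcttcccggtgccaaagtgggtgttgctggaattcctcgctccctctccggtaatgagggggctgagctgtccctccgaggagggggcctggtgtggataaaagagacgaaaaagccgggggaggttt
The ID1 window held the TATA motif 31 bases before the gene start, overlapping its reverse complement, and none of the other 3 motifs. The ID3 window held CAGAC 147 bases before the start. The LTBP2 window held GGCGCC 222 bases before the start, and its E-box begins on the last base of that match. Of 35116 upstream windows of this length, 16.4% held GGCGCC, 38.0% the SMAD box, 61.8% an E-box and 10.7% the TATA motif. Among the 8 member genes with such a window at their outermost start (ID1, ID2, ID3, ID4, LTBP2, SMAD6, SMAD7 and TGFB1), 1, 3, 4 and 2 held these motifs. A match is a run of letters in the sequence and not evidence of binding.

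The values are MAS5 signals, scaled here to a common mean, and a signal under 28.3 units, the median of all probe sets on all arrays, was counted as at the floor. Because a signal at the floor gives no level, a fold against it is a lower limit. The 3 arrays had deposited medians of 29.6 (nm23-H1), 29.0 (nm23-H2) and 26.5 (vector), and 51.6%, 47.4% and 50.9% of their probe sets were above the floor after scaling. The NME1 probe set gave 2379 units with nm23-H1, 1132 with nm23-H2 and 1519 with vector, and the probe set that NME2 shares with the read-through transcript NME1-NME2 gave 2323, 4845 and 2272, so each transfected gene was brightest on its own array. All 7 squamous epithelial markers with an unshared probe set were above the floor on every array, with summed signals of 25663, 41424 and 30024 units. Of 7 fibroblast markers, COL1A2 was above the floor with nm23-H1 and nm23-H2 and none with vector (sums 95.2, 104.7 and 80.3), and COL3A1, PDGFRB, LUM and FAP were at the floor by every probe set. COL1A1 and DCN were at the floor by the probe set used in these sums but not by others, whose names end in _x_at. That of COL1A1 gave 168.5 units with nm23-H1, 151.5 with nm23-H2 and 123.4 with vector, and the 2 of DCN were highest with vector. Of 5 endothelial markers PECAM1 alone was above the floor on any array, and of 3 leukocyte markers CD14 and CD3E were, both with nm23-H1 and CD3E with vector too.

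On at least 1 array, 7 of the 10 genes lay above the floor: BMP2, INHBA, TGFB1, LTBP2, ID1, ID3 and SMAD7. With nm23-H1, BMP2 and LTBP2 were at least 2-fold higher than with vector and 0 of the genes were at least 2-fold lower, where the background over all 7986 measured genes was 2.14% higher and 1.73% lower. With nm23-H2, INHBA and LTBP2 were at least 2-fold higher than with vector and ID3 was at least 2-fold lower, against backgrounds of 3.59% and 3.61%. Between the nm23 arrays, BMP2 and ID3 were at least 2-fold higher in nm23-H1 cells than in nm23-H2 cells, and INHBA and TGFB1 at least 2-fold lower, against backgrounds of 3.76% and 3.81%. Since the differences themselves chose 4 of the genes, nothing is read from these counts against the background. The median log2 difference over the 7 genes was -0.10 in nm23-H1 over vector cells, 0 in nm23-H2 over vector cells and 0.24 in nm23-H1 over nm23-H2 cells, and over all measured genes it was 0, -0.06 and 0.08. The 2 comparisons with vector share the vector array.

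The error available in these data is how far probe sets for 1 gene disagree. For genes whose probe sets averaged under 300 units, the range of all members but ID1, the SD of this disagreement on the log2 scale was 0.36 between nm23-H1 and vector (1101 genes), 0.39 between nm23-H2 and vector (995 genes) and 0.43 between nm23-H1 and nm23-H2 (1003 genes). Over all brightness levels, used for ID1, it was 0.34, 0.37 and 0.40. This SD covers neither cultures nor transfectants nor hybridisations.

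**Figure D1:**
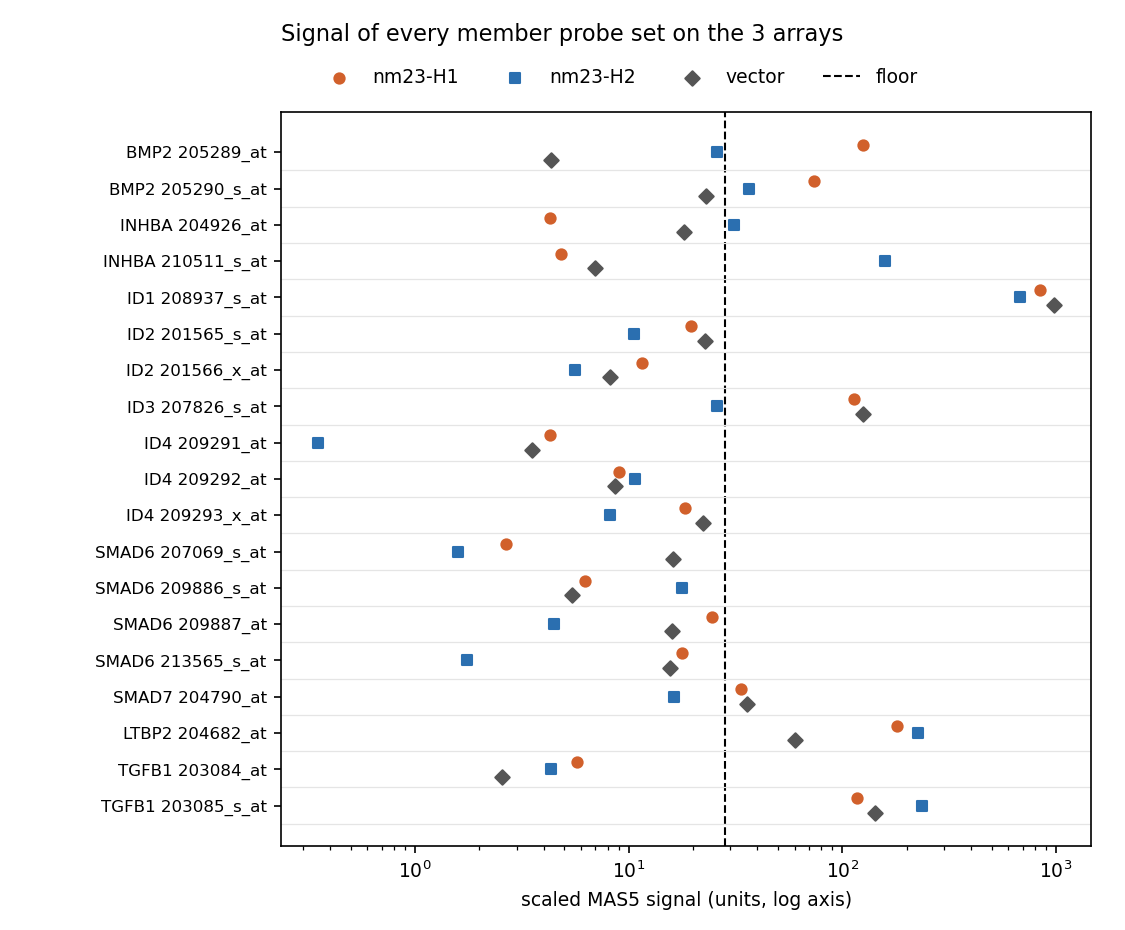
Scaled MAS5 signal (units, log axis) of the 19 probe sets of the 10 genes on the nm23-H1 (circles), nm23-H2 (squares) and vector (diamonds) arrays, 1 array each, with the floor of 28.3 units as a dashed line. BMP2 is highest with nm23-H1, INHBA with nm23-H2, ID3 lies below the floor with nm23-H2, and every ID2, ID4 and SMAD6 probe set lies left of the line.

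BMP2, which encodes a bone morphogenetic protein ligand (chromosome 20, 6767686 to 6780246 in GRCh38.p14), was above the floor with nm23-H1 by both of its probe sets. The first, 205289_at, gave 124.7 units with nm23-H1, 26.0 with nm23-H2 and 4.32 with vector. The second, 205290_s_at, gave 73.9 units with nm23-H1, 36.5 with nm23-H2 and 23.0 with vector. Both probe sets were thus highest with nm23-H1, and on the vector array neither reached the floor. Against vector, BMP2 was at least 4.40-fold higher with nm23-H1 by the first probe set and at least 2.61-fold higher by the second. Against nm23-H2 it was at least 4.40-fold higher with nm23-H1 by the first and 2.03-fold higher by the second. These 4 differences exceeded the disagreement between probe sets, although that disagreement was not taken from values at the floor. Between nm23-H2 and vector the first probe set gave no difference, both arrays being at the floor, and the second gave a difference of at least 1.29-fold. This is 0.36 on the log2 scale, a lower limit, so whether the difference exceeds 0.39 is not resolved. With a floor at the 70th percentile (66.2 units) the lower limit for BMP2 did not reach 2-fold in the comparison of nm23-H1 with vector (0.91 on the log2 scale). With a floor at the 25th percentile BMP2 was at least 2-fold higher in nm23-H2 cells than in vector cells as well (1.66), as it was when 16 was added in place of a floor (1.05).

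INHBA encodes the subunit whose homodimer is activin A (chromosome 7, 41685114 to 41705406). The probe set 210511_s_at gave 4.82 units with nm23-H1, 158.5 with nm23-H2 and 6.97 with vector. The other, 204926_at, gave 4.31 units with nm23-H1, 31.3 with nm23-H2 and 18.3 with vector. The nm23-H2 array was the only one above the floor by either probe set. By 210511_s_at INHBA was at least 5.59-fold higher in nm23-H2 cells than in vector cells, while 204926_at, barely over the floor, gave at least 1.10-fold. With only plain _at probe sets the nm23-H2 difference from vector was therefore 0.14 on the log2 scale, and with the mean of both probe sets it was 1.31. Between nm23-H1 and vector INHBA gave no difference, since both arrays were at the floor.

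TGFB1, the gene of TGF-beta 1 (chromosome 19, 41330323 to 41353922), was measured by 203085_s_at, with 116.9 units in nm23-H1, 235.9 in nm23-H2 and 141.8 in vector cells. Its other probe set, 203084_at, lay between 2.55 and 5.74 units and gave no level. The nm23-H2 array was highest, and the nm23-H1 and vector arrays were closer together than the disagreement between probe sets (-0.28 on the log2 scale against 0.36). The difference of nm23-H2 from vector was 1.66-fold higher (0.73 on the log2 scale), just outside the 2-fold limit, and it passed the limit with the values as deposited (1.06). The difference of nm23-H1 from nm23-H2 was 2.02-fold lower (-1.01), just inside, and it was under 2-fold with quantile normalization, when 16 was added instead of using a floor, and with the mean of probe sets (-0.51 in the last).

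LTBP2 encodes a matrix glycoprotein of the latent TGF-beta binding protein family, which is found with microfibrils (chromosome 14, 74498183 to 74612237). Its single probe set gave 180.6 units with nm23-H1, 227.4 with nm23-H2 and 59.9 with vector, so it was the only member above the floor on every array and at least 2-fold different from vector on both nm23 arrays. LTBP2 was 3.02-fold higher in nm23-H1 cells than in vector cells (1.59 on the log2 scale) and 3.80-fold higher in nm23-H2 cells than in vector cells (1.92). The difference of nm23-H1 from nm23-H2 was -0.33 on the log2 scale, which is within 0.43, but -0.55 with the values as deposited, which is beyond it. The order of these 2 thus depends on the scaling and is not resolved. The difference from vector stayed at least 2-fold under all 9 alternatives for nm23-H1 (1.37 to 1.70) and all 8 for nm23-H2 (1.68 to 2.25). In RNA from whole cultures a change in the number of cells with a transcript and a change in its amount per cell cannot be told apart. The fibroblast marker sums given above were also higher on both nm23 arrays than on the vector array. However, they are made up mostly of signals at the floor, which give no level. COL1A2, the only marker in them above the floor, gave 39.0 units with nm23-H1, 31.7 with nm23-H2 and 27.6, at the floor, with vector. The COL1A1 probe set outside these sums was higher too (0.45 for nm23-H1 and 0.30 for nm23-H2 on the log2 scale), while DCN was lower. The part of these markers in the LTBP2 difference was not tested.

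Of the ID genes, ID1 and ID3 could be measured, and both were below vector on each nm23 array, by amounts beyond the disagreement between probe sets with nm23-H2 only. ID1 (chromosome 20, 31605289 to 31606510) was well above the floor on each array, with 839.6 units in nm23-H1, 679.6 in nm23-H2 and 984.6 in vector cells. The vector array was highest and the nm23-H2 array lowest, with differences of -0.23 on the log2 scale for nm23-H1 against vector, within 0.34, and -0.53 for nm23-H2 against vector, beyond 0.37. The nm23-H1 and nm23-H2 arrays differed by 0.30, within 0.40. With the values as deposited the difference of nm23-H2 from vector was -0.21.

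ID3 (chromosome 1, 23557926 to 23559501) had a single probe set, with 113.3 units in nm23-H1, 26.0 in nm23-H2 and 125.3 in vector cells. The nm23-H1 and vector arrays differed by less than the disagreement between probe sets (-0.15 on the log2 scale against 0.36), and the nm23-H2 array was just under the floor. ID3 was at least 4.42-fold lower in nm23-H2 cells than in vector cells, and its difference for nm23-H1 over nm23-H2 was at least 2.00 on the log2 scale. When the floor was set at the 70th percentile, the first of these was -0.92 on the log2 scale and the second 0.77. Both are lower limits in size that do not reach 2-fold.

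ID2 (chromosome 2, 8682056 to 8684461) and ID4 (chromosome 6, 19837370 to 19842197) were at the floor on all arrays. The 2 probe sets of ID2 lay between 5.64 and 22.9 units and the 3 of ID4 between 0.352 and 22.4 units, and the probe set shared by ID2 and ID2B gave 13.7 units with nm23-H1, 2.91 with nm23-H2 and 9.96 with vector. A difference between arrays could not be measured for either gene at these signals, which does not show that their transcripts were absent.

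The inhibitory SMAD genes were dim as well. SMAD6, whose product acts mainly on BMP receptors and SMAD1 (chromosome 15, 66702236 to 66782849), was at the floor by all 4 probe sets, which lay between 1.59 and 24.7 units. SMAD7, whose product inhibits TGF-beta, activin and BMP receptors (chromosome 18, 48919853 to 48950965), gave 33.4 units with nm23-H1, 16.3 with nm23-H2 and 35.9 with vector. The nm23-H1 and vector arrays were just above the floor and the nm23-H2 array was below it. The difference was -0.10 on the log2 scale for nm23-H1 against vector, with the sign turned with the values as deposited (0.0089). For nm23-H2 against vector SMAD7 was at least 1.27-fold lower (-0.34), a lower limit in size, so whether this second difference exceeds 0.39 is not resolved. A floor at the 25th percentile gave -1.14 for the second difference.

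**Figure D2:**
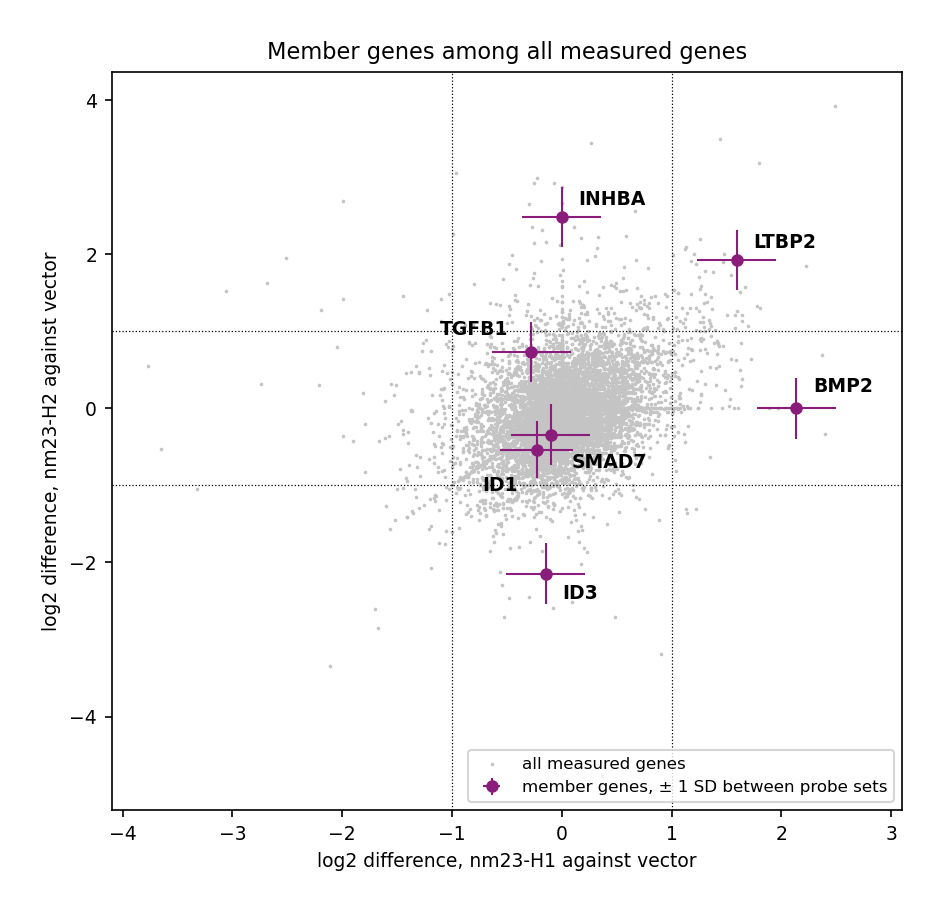
Log2 difference from vector with nm23-H1 (x axis) and with nm23-H2 (y axis) for 7986 measured genes (grey) and the 7 measured members (purple, bars ± 1 SD of the disagreement between probe sets), with dotted lines at 2-fold. BMP2 stands to the right at 2.14, INHBA at the top at 2.48, ID3 at the bottom at -2.14, all 3 of them lower limits in size, and LTBP2 is beyond the lines on both axes.

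Neighbouring genes on the chromosome were set beside each member, taking up to 20 measured genes on either side. The 40 neighbours of BMP2, spread over 19.9 Mb, had a median log2 difference of 1.13 for nm23-H1 against vector; 34 of them were above 0, 23 higher by 2-fold or more and 0 lower by as much. BMP2 exceeded that median by 1.01 or more, since its own difference is a lower limit. For nm23-H2 against vector the same neighbours had a median of 0.34, with 12 at least 2-fold higher and 1 lower. BMP2 itself gave 0 in that comparison, both arrays being at the floor by the chosen probe set. For nm23-H1 against nm23-H2 the neighbours had a median of 0.40, beside at least 2.14 for BMP2. The part of the regional shift in the BMP2 difference was not tested.

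ID1 lies on the same chromosome, further along, where 9 of 40 neighbours were at least 2-fold higher in nm23-H1 cells than in vector cells, 0 were at least 2-fold lower and the median was 0.07. All 9 were among the 20 on the BMP2 side of ID1 (median 0.61), against 0 of the 20 on the far side (median -0.07). The windows of BMP2 and ID1 share 7 neighbours, and 3 of the 9 are among them. For nm23-H2 against vector the median around ID1 was -0.29, beside -0.53 for ID1 itself. LTBP2 went against its neighbours, whose medians were -0.27 for nm23-H1 and -0.38 for nm23-H2 against vector, with 0 of 40 at least 2-fold higher in either. LTBP2 exceeded these medians by 1.86 and 2.31. The neighbours of INHBA had medians of 0.005 and 0.03 against vector and those of ID3 0.05 and -0.21, and 6 of the 40 genes around ID3 were at least 2-fold lower in nm23-H2 cells than in vector cells. Around TGFB1 the medians were -0.06 and -0.13.

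**Figure D3:**
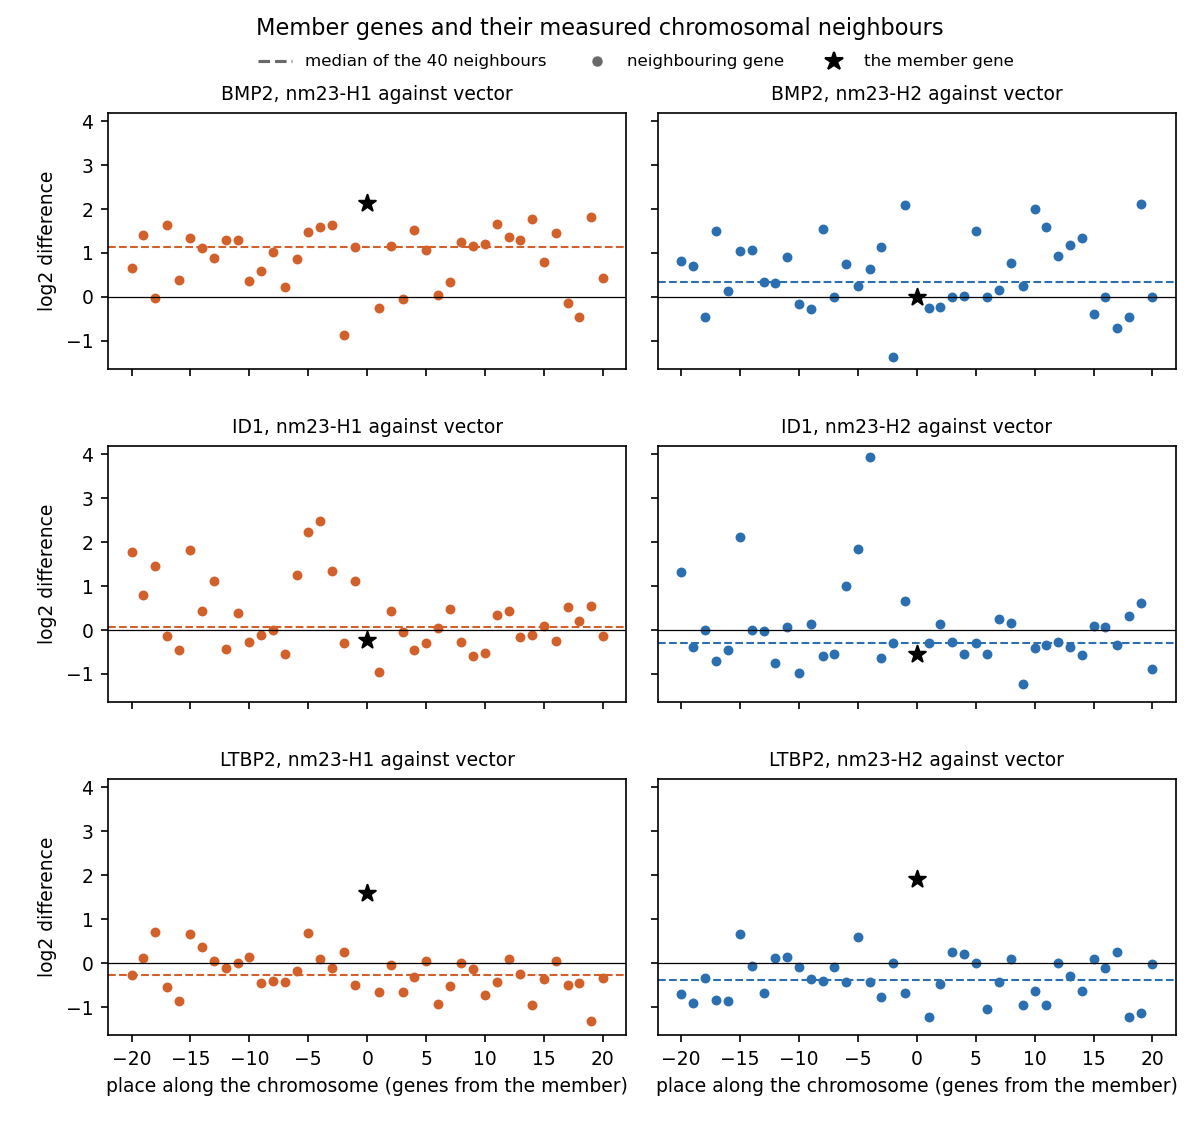
Log2 difference from vector of BMP2, ID1 and LTBP2 (stars) and of the 20 measured genes on either side of each (dots, in chromosome order), for nm23-H1 (left) and nm23-H2 (right), with the neighbours' median as a dashed line. The genes around BMP2 have a median of 1.13 with nm23-H1, while LTBP2 stands above neighbours whose medians are -0.27 and -0.38.

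For each of the 4 genes that chose the group, the genes nearest in pattern were found by the distance between their pairs of log2 differences from vector, over the 3 arrays. Among 5032 genes reaching 66.2 units on some array, those nearest to BMP2 were MMP13, a collagenase (distance 0.17), HSPB8, a small heat shock protein (0.25), and ALPP, placental alkaline phosphatase (0.42), and these 3 were the only ones within 0.5. Nearest to INHBA were DDIT3, which encodes the stress factor CHOP (0.028), HSPA5, the chaperone BiP (0.17), and RHCG, an ammonium transporter (0.19), among 13 within 0.5. Nearest to ID3 were LGALS1, galectin-1 (0.29), GET1, a protein insertion factor (0.34), and SCD, a fatty acid desaturase (0.35), among 14. Nearest to LTBP2 were ALDH2, an aldehyde dehydrogenase (0.13), QSOX1, a sulfhydryl oxidase (0.14), and GCLM, a subunit of the glutathione-synthesising ligase (0.19), among 17. Each distance rests on 2 differences per gene, and those of BMP2, INHBA and ID3 include arrays set to the floor.

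The rest of the pathway was read from a list of 70 further genes, of which 66 had an unshared probe set and 47 were above the floor by the probe set chosen for the gene; these 47 are called measured. By any unshared probe set 51 were, the other 4 being GDF15, LTBP4, COL1A1 and MSX2, which were named after their values were seen and are in no count or median. Of these 47, 1 was higher and 1 lower by 2-fold or more in nm23-H1 cells than in vector cells (background 3.87% either way). With nm23-H2 against vector 2 were higher and 3 lower (background 7.2%), and with nm23-H1 against nm23-H2 1 was higher and 3 lower (background 7.56%). The list's median difference was -0.02, -0.02 and 0, against 0, -0.06 and 0.08 over all measured genes.

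Among the ligand genes, 7 of 10 were measured. BMP7, a further bone morphogenetic protein, gave 452.0 units with nm23-H1, 108.5 with nm23-H2 and 267.7 with vector. It was 2.47-fold lower in nm23-H2 cells than in vector cells, but under 2-fold with the values as deposited. In nm23-H1 cells BMP7 was 4.17-fold higher than in nm23-H2 cells. The nm23-H1 array was highest and the nm23-H2 array lowest, and the median of its 3 further probe sets gave a difference of -1.13 between nm23-H2 and vector and of 1.51 between nm23-H1 and nm23-H2. GDF15, a distant ligand of the family, lay at the floor by its first-choice probe set. Another, whose name ends in _x_at, gave at least 2.48 for nm23-H2 against vector, the vector array being at the floor.

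Of the receptor genes, 10 of 12 were measured. ACVR1, a type I receptor for BMPs, gave 81.1 units with nm23-H1, 48.3 with nm23-H2 and 99.3 with vector. It was 2.06-fold lower in nm23-H2 cells than in vector cells, but under 2-fold with the values as deposited. The medians over the receptor genes were 0.08 for nm23-H1 and -0.14 for nm23-H2 against vector, the second being 0 with the values as deposited. Of 6 signal-carrying SMAD genes, 4 were measured. SMAD1, which carries BMP signals, gave 27.9 units with nm23-H1, 38.8 with nm23-H2 and 63.6 with vector and was at least 2.25-fold lower in nm23-H1 cells than in vector cells. SMAD3, which carries activin and TGF-beta signals, gave 246.5, 348.1 and 134.3 units in the same order and was 2.59-fold higher in nm23-H2 cells than in vector cells, but the median of its 3 further probe sets was -0.05.

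Antagonists acting outside the cell or at its surface were measured for 5 of 9 genes. Their medians were -0.08 for nm23-H1, which turned to 0.03 with the values as deposited, and 0.74 for nm23-H2 against vector (0.75 to 1.07 under the 3 other scalings). In the main scaling 0 of the 5 were at least 2-fold different from vector, against backgrounds of 3.87% for nm23-H1 and 7.2% for nm23-H2. With the values as deposited the nm23-H2 median itself passed 2-fold (1.07). FST, follistatin, which binds and neutralises activin, gave 192.1 units with nm23-H1, 578.0 with nm23-H2 and 301.2 with vector. It was 3.01-fold lower in nm23-H1 cells than in nm23-H2 cells, and its other probe set gave -0.62 on the log2 scale. The nm23-H2 array was thus highest for FST, as it was for INHBA, while the second FST probe set gave -0.11 for nm23-H2 against vector. The intracellular brakes SMURF1, SMURF2, SKI, TGIF1 and NEDD4L, the 5 measured of 7, were all under 2-fold in every comparison in the main scaling.

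Genes of the latent complex and of ligand processing were measured for 5 of 8. LTBP3, a relative of LTBP2 that binds latent TGF-beta, gave 177.4 units with nm23-H1, 96.1 with nm23-H2 and 67.1 with vector and was 2.64-fold higher in nm23-H1 cells than in vector cells. The LTBP3 difference for nm23-H2 against vector was 0.52. Whether the rest of the LTBP family, named after its values were seen, shared the difference of LTBP2 and LTBP3 with nm23-H1 is not resolved. For nm23-H1 against vector LTBP1 gave -0.44 by the chosen probe set, at the floor with nm23-H1, and 0.10 by another, at the floor with vector. Both are lower limits in size. The 2 further probe sets of LTBP4 gave -0.92, at the floor with nm23-H1 and so also a lower limit in size, and 0.35. Over the 5 genes the medians were -0.21 for nm23-H1 and -0.27 for nm23-H2 against vector, the second turning to 0.06 with the values as deposited. TGF-beta and activin target genes were measured for 4 of 9, all 4 above 0 for nm23-H2 against vector with a median of 0.70 (0.59 to 1.03 under the 3 other scalings, again all 4 above 0), and 2 of 4 above 0 for nm23-H1 against vector with a median of -0.16. Other probe sets gave other values for THBS1, the gene of the matrix protein thrombospondin-1, which was named after its values were seen. Its chosen probe set gave 0.17 for nm23-H1 and 0.33 for nm23-H2 against vector, whereas the median of its 3 further probe sets was 1.20 for nm23-H1 and 0.44 for nm23-H2, so the array on which it was highest depends on the probe set. COL1A1, outside the 4, gave the 0.45 and 0.30 stated above. CDKN1A, the cell cycle inhibitor p21, which also responds to p53, gave 75.1 units with nm23-H1, 290.3 with nm23-H2 and 113.7 with vector and was 2.55-fold higher in nm23-H2 cells than in vector cells. JUNB, an AP-1 subunit, was 2.02-fold lower in nm23-H1 cells than in nm23-H2 cells, and CDKN1A 3.87-fold lower.

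BMP target genes other than the ID and SMAD genes were measured for 5 of 6, namely MSX1, HEY1, DLX2, RUNX2 and GATA2. All 5 were below 0 for nm23-H1 against vector, also under the 3 other scalings, with a median of -0.25. There HEY1 and GATA2 (both -0.25) were within the disagreement between probe sets of 0.36, and DLX2 (-0.40) was beyond it. MSX1 (-0.19) and RUNX2 (-0.49) were at the floor with nm23-H1, so these values are lower limits in size. MSX1, DLX2 and RUNX2 were dim, with 32.3, 43.3 and 39.8 units on vector, their brightest array. DLX2 and RUNX2 were at the floor with nm23-H2. For nm23-H2 against vector all 5 were below 0 with a median of -0.55, but MSX1 (-0.14) turned above 0 under each of the 3 other scalings, where the median lay between -0.47 and -0.30. None of the 5 was at least 2-fold different from vector. Further probe sets of these genes did not share the direction throughout. For nm23-H1 against vector that of DLX2 gave 0.0035, the 2 of GATA2 gave -0.38 and 0.24, and that of MSX2, the sixth gene, gave 0.13. All of these but the 0.24 have an array at the floor and are lower limits in size. For nm23-H2 against vector those of DLX2 and MSX2 gave 0, both arrays being at the floor, and the 2 of GATA2 gave -0.38, a lower limit in size, and 0.036. Of the E protein genes, whose products pair with ID proteins, TCF12 gave 52.7 units with nm23-H1, 34.6 with nm23-H2 and 72.0 with vector. It was 2.08-fold lower in nm23-H2 cells than in vector cells, but under 2-fold with the values as deposited. TCF3 gave -0.87 on the log2 scale in that comparison (median of its 8 further probe sets, -0.42). For nm23-H1 against vector TCF12 gave -0.45 and TCF3 -0.66, and the 8 further probe sets of TCF3 ran from -1.61 to 0.79 (median -0.42). Both were below 0 under the 3 other scalings as well.

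**Figure D4:**
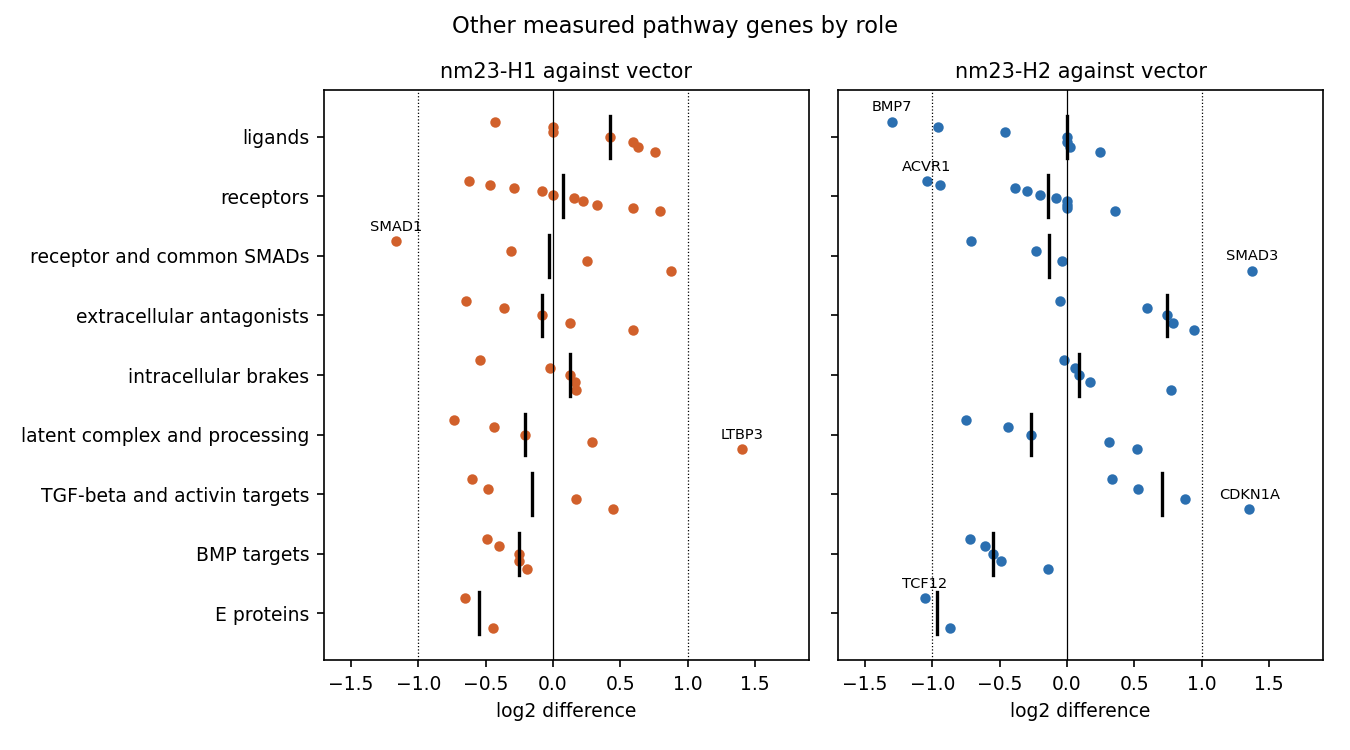
Log2 difference from vector of the 47 other measured pathway genes by role (dots, 1 gene each; black bars, median of the role; dotted lines, 2-fold), for nm23-H1 (left) and nm23-H2 (right). Named dots are at least 2-fold different; with nm23-H2 the median of the extracellular antagonists is 0.74 and that of the 5 BMP targets -0.55, of which MSX1 turns above 0 under the other scalings.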

How the data were processed

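Transcripts were measured on 1 Affymetrix array per transfectant. The deposited values are linear MAS5 intensity signals per probe set, made by the authors according to the submitters' processing notes; version and scaling target are not given in the sources used here. Each array was multiplied (nm23-H1 by 1.03, nm23-H2 by 0.881, vector by 1.11) so that its mean between percentiles 2 and 98 equalled the geometric mean of the 3. Signals under the pooled median of 28.3 units were set to that floor before taking log2. For each gene 1 probe set was used, the brightest among those whose name does not end in _x_at, or of the rest where there is none; the 19071 probe sets annotated to 1 symbol were eligible, and 1043 with several and 2169 with none were not. A gene was counted at 2-fold (1 on the log2 scale); no test was possible with 1 array per group, and the number of arrays limits the precision. The error given is the SD, over genes, of how far 2 probe sets differ in their log2 difference, scaled to 1 probe set. Probe sets whose name ends in _x_at, or at the floor on either array compared, were left out of it. Named were all 10 members, pathway genes at least 2-fold different (at most 4 per role and comparison) and the 3 genes nearest in pattern. Members and lists were chosen with earlier results of these data known. The steps were tested on simulated data. Alternatives covered 3 scalings, 2 floors, 16 added in place of a floor, 2 choices of probe set, a 1.5-fold limit and, for nm23-H1 against vector, leaving out the nm23-H2 array. Gene positions and names came from RefSeq, GRCh38.p14. Python 3.11.15, numpy 2.4.6, pandas 2.3.3 and matplotlib 3.10.9 were used.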

Additional observations from a re-analysis of the deposited data

How the results depend on the processing

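No paired analysis was possible because each group had 1 array, and leaving out a replicate was not possible for the same reason. No member difference of 2-fold or more changed direction under any alternative run. Of 162 values of single members under alternatives, 137 moved by less than the disagreement between probe sets and 25 by more. The disagreement over all brightness levels (0.34, 0.37 and 0.40) was used for every member here. Counts are given in the order nm23-H1 against vector, nm23-H2 against vector, nm23-H1 against nm23-H2. All genes at least 2-fold different numbered 309, 575 and 604, and 1215, 1625 and 1747 with a floor at the 25th percentile, 132, 304 and 306 with a floor at the 70th, 182, 333 and 346 with plain _at probe sets, and 1291, 1984 and 2146 at 1.5-fold. Other pathway genes numbered 2, 5 and 4, and 11, 14 and 11 with the 25th percentile floor and 14, 18 and 18 at 1.5-fold. With plain _at probe sets they numbered 0, 3 and 2, and with the values as deposited 2, 7 and 6. For nm23-H1 against vector they numbered 1 with the 70th percentile floor, 4 with 16 added and 1 with the mean of probe sets, and for nm23-H2 against vector 3 with the 70th percentile floor and 3 with quantile normalization. Members higher with nm23-H1 than with vector numbered 1 in place of 2 with the 70th percentile floor. For nm23-H2 against vector, members lower numbered 3 in place of 1 with the 25th percentile floor and 0 with the 70th, and plain _at probe sets gave 1 higher and 0 lower, since ID3 has no such probe set. For nm23-H1 against nm23-H2, members higher numbered 4 in place of 2 with the 25th percentile floor, 0 with the 70th and 1 with plain _at probe sets. Members lower there numbered 1 in place of 2 with quantile normalization, with 16 added and with the mean of probe sets, and 0 with plain _at probe sets. The cause was not tested beyond the fewer genes that a higher floor or plain _at probe sets leave. With the values as deposited the all-gene median moved by 0.23 for nm23-H2 against vector and by -0.15 for nm23-H1 against nm23-H2. The split of higher to lower genes was then 209 to 93, 634 to 107 and 171 to 499, in place of 171 to 138, 287 to 288 and 300 to 304. With a common median it was 208 to 108 for nm23-H1 against vector and 394 to 182 for nm23-H2 against vector. Signal over background is the limit for ID2, ID4, SMAD6 and SMAD7.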
